A study of Mus musculus with 9 samples.

Results

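The osteoclast genes and the genes of RANK signalling were described by 10 members: Csf1, Tnfsf11, Tnfrsf11a, Tnfrsf11b, Nfatc1, Oscar, Calcr, Acp5, Ctsk and Mmp9. They were chosen by gene symbol, and every probe set that the array annotation gives to 1 of these symbols was taken, which made 22 of the 45037 probe sets tested. RNA of mouse embryos at embryonic day 16.5 was measured on 9 arrays. The temporomandibular joint, where the lower jaw meets the skull, gave 3 arrays for its condyle and 3 for its fossa, and the whole body gave another 3. Under the labels all 9 samples carry the same entry of laser capture from fresh frozen tissue. The labels give no strain, genotype or sex and do not say how many embryos a sample holds, which embryos they were, or how the whole body samples were captured. The design text calls the arrays biological triplicates, and the p-values measure the spread between them.

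Transcripts of RANK ligand and of OSCAR were at background on all 9 arrays, and RANK was above it on 2 whole body arrays alone. One probe set of Nfatc1, the master transcription factor of osteoclasts, was higher in condyle than in whole body (by 2.16 on the log2 scale) and than in fossa (by 1.92). The resorption genes Acp5, Ctsk and Mmp9 passed the test in none of the 3 comparisons. Their highest values by far lay on a single condyle array, and on the other condyle arrays they lay near the fossa and whole body arrays.

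Osteoclasts are multinucleated cells of the monocyte and macrophage lineage that resorb bone and calcified cartilage. Their precursors need the cytokine CSF1 and the membrane-bound ligand RANKL, encoded by Tnfsf11, which binds the receptor RANK, encoded by Tnfrsf11a, and is neutralised by the soluble decoy receptor osteoprotegerin, encoded by Tnfrsf11b. RANK signals and co-stimulation through receptors such as OSCAR induce NFATc1, which switches on genes of the mature cell, among them tartrate-resistant acid phosphatase (Acp5), cathepsin K (Ctsk), gelatinase B (Mmp9) and the calcitonin receptor (Calcr). In the developing jaw joint these cells work at the bone of the condyle and the fossa.

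Levels are given as the deposited linear intensities, and differences are given on the log2 scale as the first group named minus the second. A value was called above background when it exceeded the brightest of 27 Bacillus subtilis control probe sets on the same array. That limit lay between intensities of 7.31 and 7.66 on condyle arrays, between 7.42 and 11.5 on fossa arrays and between 8.50 and 10.3 on whole body arrays. Above it were 45.4% to 46.9% of probe sets on condyle arrays, 30.3% to 43.8% on fossa arrays and 37.4% to 45.9% on whole body arrays. An 18S ribosomal control gave log2 intensities of 5.90 to 9.66 on condyle arrays, 7.30 to 9.75 on fossa arrays and 14.3 to 14.4 on whole body arrays. The 3′ probe set of the actin control was brighter than the 5′ one on all 9 arrays. The log2 gap was 6.52 to 6.71 on condyle arrays, 4.79 to 6.60 on fossa arrays and 5.74 to 6.57 on whole body arrays. The part of these technical differences in the results was not tested. Condyle array 1 stood apart from condyle arrays 2 and 3 for genes of osteoclasts, macrophages and bone, so the values that rest most on it are also given without it. In bulk samples, fewer cells of a type and less RNA per cell cannot be told apart.

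The members' probe sets were tested with limma's moderated test, with Benjamini-Hochberg adjustment over all probe sets at a threshold of 0.05. Of the 22, 1 was higher and 1 lower in condyle than in whole body, where 6.19% of all probe sets were called, 4.21% higher and 1.99% lower. Again 1 was higher and 1 lower in fossa than in whole body, where 16.8% of all were called, 3.69% higher and 13.1% lower. In condyle against fossa, 2 were higher and 2 lower, where 16.0% of all were called, 12.0% higher and 4.02% lower. Without condyle array 1 the calls in the 3 comparisons numbered 1, 2 and 4 in that order, beside 1520, 6220 and 4319 over all probe sets. The groups did not overlap for 8, 6 and 11 of the 22 in the 3 comparisons in that order, against 55.8%, 40.4% and 50.6% of all probe sets. The members' median difference was -0.04, 0.07 and 0.09 in the same order, beside -0.05, -0.08 and 0.04 over all probe sets. These comparisons share their samples. Of the 22 probe sets, 14 were above background on at least 1 array, 3 on all 9 arrays and 8 on none.

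**Figure D1:**
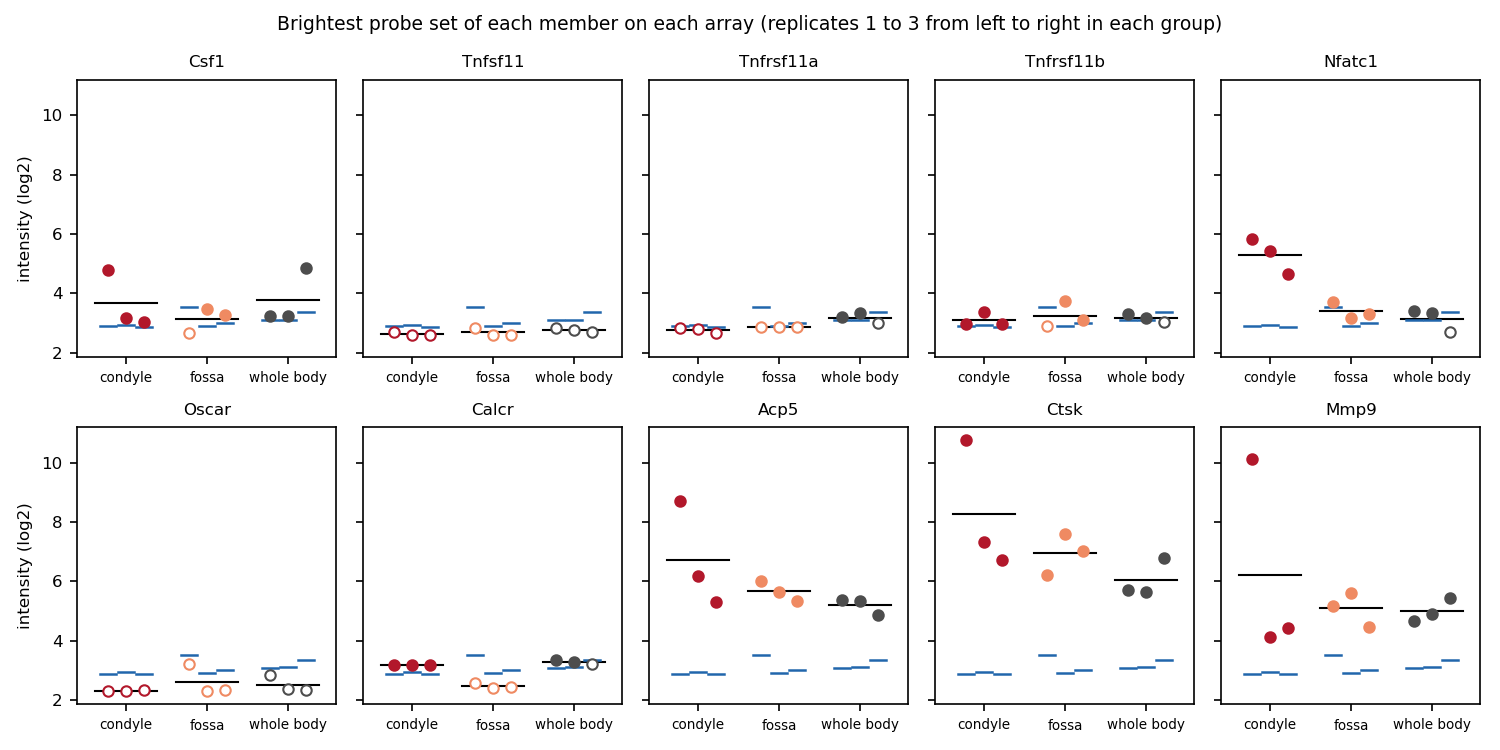
Intensity of each member's brightest probe set on a log2 axis on the 9 arrays, with condyle in red, fossa in orange and whole body in grey, and replicates 1 to 3 from left to right within a group. Filled points lie above the array's background limit (blue tick), open points lie at or below it, and black bars are group means of the log2 values. Nfatc1 was high on all 3 condyle arrays, whereas Acp5, Ctsk and Mmp9 were far higher on condyle array 1, with 419, 1744 and 1120 intensity units, than on any other array.

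The ligands came first in the pathway and were dim. Csf1, the cytokine that keeps osteoclast precursors alive, had intensities of 27.8, 8.97 and 8.12 on condyle arrays 1 to 3, of 6.30, 10.97 and 9.62 on fossa arrays and of 9.32, 9.31 and 29.1 on whole body arrays by its brightest probe set (1460220_a_at). One condyle array and 1 whole body array were high, the groups overlapped, and none of its 4 probe sets passed in any comparison. Of the other 3, 1448914_a_at was at background on all 9 arrays, and 1425155_x_at was above it on 1 condyle array alone. Tnfsf11, the RANK ligand, had intensities of 6.48, 6.04 and 6.10 on condyle arrays, of 7.12, 6.08 and 6.11 on fossa arrays and of 7.14, 6.79 and 6.43 on whole body arrays (1419083_at). All 9 lay under their array's background limit, as did all 9 of its second probe set (1451944_a_at). At this signal over background the ligand's transcript was not detectable in any group, which is not evidence that it was absent.

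Tnfrsf11a, the receptor RANK, had intensities of 7.03, 7.01 and 6.30 on condyle arrays, of 7.28, 7.25 and 7.30 on fossa arrays and of 9.09, 10.1 and 7.95 on whole body arrays (1430259_at). It was above background on whole body arrays 1 and 2 only, and neither joint group overlapped with whole body. The receptor was lower in condyle than in whole body, by 1.21-fold against the condyle's background limit (measured means of 2.76 ± 0.09 and 3.17 ± 0.17 log2, SD, n = 3 each, adjusted p = 0.0443 with limma). This call held in 4 of 17 alternatives, whose adjusted p in limma ranged from 0.00130 to 0.269. It was lost, for example, under quantile normalization (-0.29, adjusted p = 0.150) and without condyle array 1 (-0.44, adjusted p = 0.0986), a difference as large as with that array. For the fossa against whole body its adjusted p was 0.0595, and its second probe set (1419214_at) was at background on all 9 arrays.

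Tnfrsf11b, the decoy receptor osteoprotegerin, which cells of the osteoblast lineage secrete, had intensities of 7.76, 10.3 and 7.74 on condyle arrays, of 7.39, 13.4 and 8.60 on fossa arrays and of 9.78, 8.89 and 8.15 on whole body arrays (1449033_at). It was just above background on 3 condyle, 2 fossa and 2 whole body arrays, the groups overlapped, and it did not pass in any comparison. Its second probe set (1418309_at) passed as lower in condyle than in fossa in limma (difference -0.29, adjusted p = 0.0128), but it was at background on all 9 arrays, so no fold is given. The levels of ligand, receptor and decoy cannot be set against each other, since they come from different probes.

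Nfatc1, the transcription factor that RANK signals induce, was the member with the clearest difference between groups. Its brightest probe set (1428479_at) had intensities of 57.2, 43.0 and 25.2 on condyle arrays, of 13.1, 9.02 and 9.77 on fossa arrays and of 10.47, 10.2 and 6.51 on whole body arrays. Every condyle array lay above every fossa and whole body array, while fossa and whole body overlapped. The mean log2 intensity of the condyle was 5.31 ± 0.60, that of the fossa 3.39 ± 0.29 and that of the whole body 3.15 ± 0.39 (SD, n = 3 each). It was higher in condyle than in whole body by 2.16 ± 0.34 (SE, adjusted p = 0.0147 with limma), which is at least 3.84-fold since 1 whole body array was at background. It was higher in condyle than in fossa by 1.92 ± 0.34 (SE, adjusted p = 0.0119 with limma). Between fossa and whole body the difference was 0.25 ± 0.34 (SE, adjusted p = 0.659 with limma). Without condyle array 1 the differences were 1.90 against whole body (adjusted p = 0.0417) and 1.65 against fossa (adjusted p = 0.0339). Each condyle call was lost in 1 of 17 alternatives: against whole body without condyle array 2 (adjusted p = 0.0523), and against fossa under quantile normalization (adjusted p = 0.0653).

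The other 4 probe sets of Nfatc1 did not show this difference as a call. 1417621_at had intensities of 31.2, 21.3 and 8.68 on condyle arrays, of 7.48, 9.84 and 6.03 on fossa arrays and of 7.42, 6.99 and 7.58 on whole body arrays. Condyle arrays 1 and 2 were above all others, but condyle array 3 lay within the range of the fossa, and the differences of 1.29 against whole body (adjusted p = 0.150 with limma) and 1.23 against fossa (adjusted p = 0.111) did not pass. 1447085_s_at had an intensity of 23.2 on condyle array 1 and was at background on the other 8 arrays. 1447084_at was above background on 3 condyle, 1 fossa and 2 whole body arrays, with groups that overlapped. The last, 1425761_a_at, was at background on all 9 arrays, and 2 of its differences passed there in limma, of 0.14 in fossa against whole body (adjusted p = 0.0258) and of -0.18 in condyle against fossa (adjusted p = 0.0108). The probe sets therefore disagreed, and which transcripts of Nfatc1 each one reads was not analysed here.

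**Figure D2:**
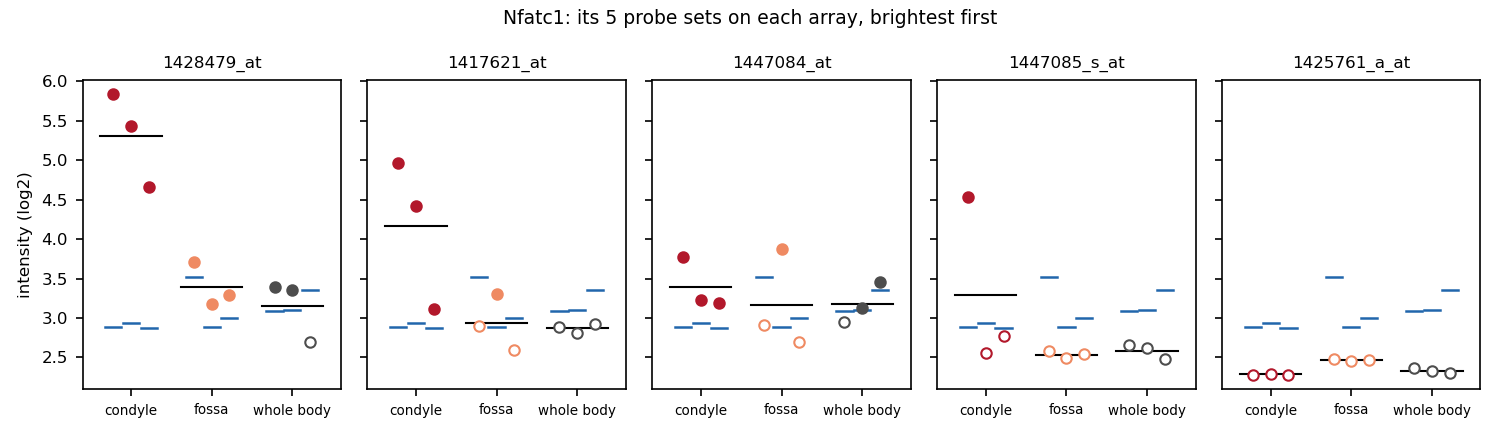
Intensity (log2 axis) of the 5 probe sets of Nfatc1 on the 9 arrays, with colours, filled and open points, blue ticks and black bars as in the plot of the members. Only 1428479_at had all 3 condyle arrays above every other array, and 1425761_a_at was at background on all 9.

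The surface receptors of the list were at or near background. Oscar, an immunoglobulin-like co-stimulatory receptor of osteoclasts, was at background on all 9 arrays by both of its probe sets. Calcr, the calcitonin receptor of mature osteoclasts, had intensities of 9.03, 8.99 and 8.99 on condyle arrays, of 5.93, 5.33 and 5.37 on fossa arrays and of 10.1, 9.59 and 9.17 on whole body arrays (1418688_at). The fossa was at background on all 3 arrays and lay under all condyle and whole body arrays. Whole body array 3 was also under its limit (9.17 against 10.3). Calcr was lower in fossa than in whole body by 1.09-fold against the fossa's background limit (measured means of 2.47 ± 0.08 and 3.27 ± 0.07 log2, SD, n = 3 each, adjusted p = 0.000291 with limma), a call lost when arrays were centred on the probe sets above background (-0.55, adjusted p = 0.0886) and under a common floor, where the difference was 0. It was higher in condyle than in fossa by at least 1.02-fold (measured means of 3.17 ± 0.00 and 2.47 ± 0.08 log2, SD, n = 3 each, adjusted p = 0.000727), and that difference turned to -0.02 under the same centring and to 0 under the same floor. In condyle against whole body it was -0.10 (adjusted p = 0.299 with limma).

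Acp5, Ctsk and Mmp9 encode the enzymes with which osteoclasts break down matrix. Acp5 had intensities of 419, 72.6 and 39.5 on condyle arrays, of 65.1, 50.01 and 40.2 on fossa arrays and of 41.7, 40.3 and 29.2 on whole body arrays. Ctsk, the collagen-degrading protease of the resorption pit, had intensities of 1744, 160.3 and 104 on condyle arrays, of 74.3, 194 and 131 on fossa arrays and of 52.2, 49.6 and 111 on whole body arrays. Mmp9, a gelatinase of migrating osteoclasts and of neutrophils, had intensities of 1120, 17.3 and 21.5 on condyle arrays, of 36.2, 49.1 and 22.0 on fossa arrays and of 25.6, 29.9 and 43.7 on whole body arrays (1416298_at). For all 3 genes condyle array 1 was highest and the ranges of the groups overlapped, and for Mmp9 condyle arrays 2 and 3 were the lowest of all 9. The second probe set of Mmp9 (1448291_at) had 163 on condyle array 1, 4.56 and 4.57 on the other condyle arrays, 5.003, 12.1 and 6.67 on fossa arrays and 4.75, 4.67 and 9.84 on whole body arrays.

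None of the 3 enzymes passed in a comparison of groups with limma, and 0 of their 4 probe sets had an unadjusted p under 0.05. In condyle against whole body the log2 difference was 1.54 ± 0.80 for Acp5 (SE, adjusted p = 0.266 with limma), 2.22 ± 1.04 for Ctsk (adjusted p = 0.239) and 1.21 ± 1.51 for Mmp9 (adjusted p = 0.580). Without condyle array 1 the same differences were 0.55 for Acp5 (adjusted p = 0.396 with limma), 0.97 for Ctsk (adjusted p = 0.376) and -0.74 for Mmp9 (adjusted p = 0.361). In condyle against fossa they were 1.07 for Acp5 (adjusted p = 0.421 with limma), 1.32 for Ctsk (adjusted p = 0.448) and 1.14 for Mmp9 (adjusted p = 0.660), and without condyle array 1 they were 0.08, 0.06 and -0.81. For fossa against whole body, which takes that array only into the shared estimate of the spread, they were 0.47 for Acp5 (adjusted p = 0.726 with limma), 0.90 for Ctsk (adjusted p = 0.594) and 0.08 for Mmp9 (adjusted p = 0.980). With that array left out of the fit, their adjusted p was 0.352, 0.271 and 0.907 in the same order. The spread among condyle arrays, with an SD of 1.77 for Acp5, 2.19 for Ctsk and 3.39 for Mmp9 on the log2 scale, exceeded the 0.28 to 0.70 seen in fossa and whole body.

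The gap between condyle array 1 and the next highest array was unusual among all probe sets. A step of 4-fold over every other array was chosen after these values had been seen, and the counts are a description with no test. Condyle array 1 exceeded every other array by that step in 7 of 45037 probe sets (0.0155%), of which 4 belong to members: both probe sets of Mmp9 (gaps of 22.8-fold and 13.5-fold), Ctsk (8.98-fold) and Acp5 (5.77-fold). The remaining 3 were Thbs4, a matrix protein gene, Cd68, a lysosomal marker of macrophages and osteoclasts, and Ocstamp, which osteoclast precursors need for fusion. The next highest array was fossa array 2 for Ctsk and Mmp9 and condyle array 2 for Acp5. Each other array had 1 to 54 probe sets of its own beyond the same step, and no member's probe set was among them.

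**Figure D3:**
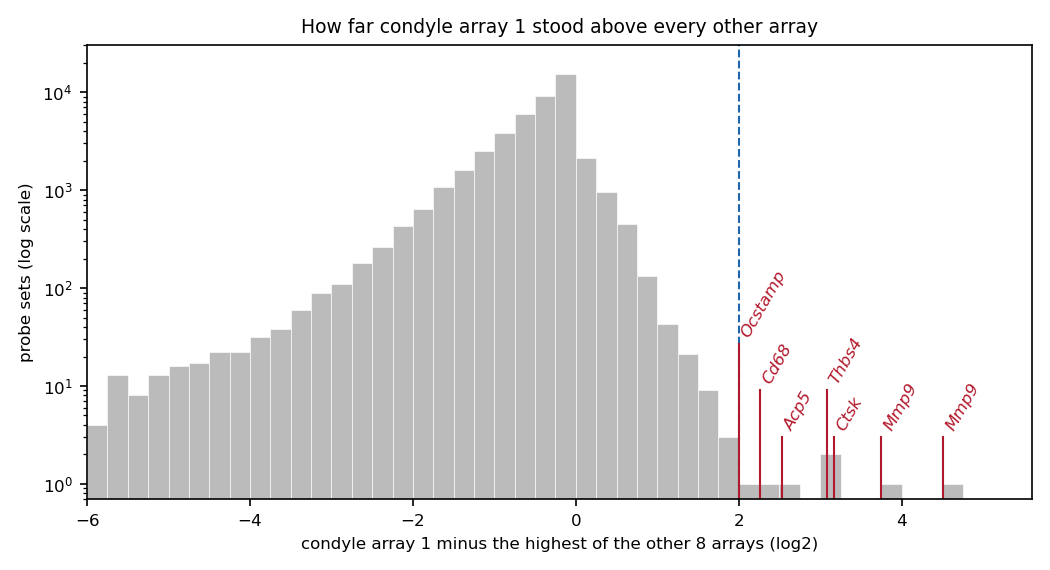
Number of probe sets (log axis) by the log2 gap between condyle array 1 and the highest of the other 8 arrays, with the 7 probe sets at or beyond the dashed line marked by gene and gaps under -6 not drawn. The step of 4-fold is the dashed line at a gap of 2, and the values of Mmp9 (4.51 and 3.75), Ctsk (3.17) and Acp5 (2.53) lay beyond it.

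Correlations between the enzymes rested on the same array and are given as descriptions over arrays that share their groups. Over 9 arrays, Pearson's r of log2 intensity was 0.88 for Acp5 with Ctsk, 0.88 for Acp5 with Mmp9 and 0.87 for Ctsk with Mmp9. Over the 8 arrays without condyle array 1 it was 0.22, -0.28 and 0.04 in that order. Nfatc1 followed Acp5 with an r of 0.78, and 0.65 without condyle array 1. Its r with Ctsk was 0.66, and 0.23 without that array. With Mmp9 it was 0.47, and -0.75 without that array. Among 11185 eligible genes, the pattern most like that of Acp5 over the 9 arrays was that of Thbs4 (r = 0.946, and 0.398 without condyle array 1), followed by C2cd2 (0.936, and 0.105 without it). The patterns most like that of Ctsk were those of She (r = 0.961, and 0.80 without condyle array 1) and Grn (0.945, and 0.822 without it).

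The promoters of Ctsk and Acp5 are shown because these genes were high together on condyle array 1, and the brightest probe set of Nfatc1 was high on all 3 condyle arrays. Whether NFATc1 acts on either gene in these samples was not tested. The sequences are RefSeq's for the GRCm38.p6 build, from 250 bases before to 50 after a start site, 5′ to 3′ on the gene's strand, and capitals mark matches on either strand. That of Ctsk lies at chr3:95498960-95499259 on the plus strand, and that of Acp5 at chr9:22130549-22130848 on the minus strand, for 1 of 3 start sites listed.
Ctsk: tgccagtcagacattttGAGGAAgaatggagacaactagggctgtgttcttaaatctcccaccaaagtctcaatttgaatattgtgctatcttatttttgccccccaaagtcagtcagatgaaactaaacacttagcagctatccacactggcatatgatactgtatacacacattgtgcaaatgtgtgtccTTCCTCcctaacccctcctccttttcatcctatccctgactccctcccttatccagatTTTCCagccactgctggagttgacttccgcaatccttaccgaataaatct
Acp5: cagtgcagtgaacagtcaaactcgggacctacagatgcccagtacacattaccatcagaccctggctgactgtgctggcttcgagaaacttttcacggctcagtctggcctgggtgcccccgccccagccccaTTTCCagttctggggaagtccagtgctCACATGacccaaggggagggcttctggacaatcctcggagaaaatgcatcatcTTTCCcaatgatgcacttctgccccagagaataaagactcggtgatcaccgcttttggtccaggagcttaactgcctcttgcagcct
The motifs searched were an NFAT core (GGAAA), a PU.1 site (GAGGAA), an AP-1 site (TGANTCA) and an E-box read by MITF (CATGTG), of which the first and second can overlap. The Ctsk window held 1 NFAT core and 2 PU.1 matches, and the Acp5 window held 2 NFAT cores and 1 E-box. Windows of the other 2 start sites of Acp5 held 1 NFAT core each, and no AP-1 letters were in any of these 4 windows. Among 32851 promoters of the same length, 61.3% held the NFAT core, 28.3% the PU.1 letters, 7.81% the AP-1 letters and 14.2% the E-box, so these matches are common and are not evidence of binding. The table held promoters of 7 of the 10 members.

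Other genes of the osteoclast were read from a list that was chosen with earlier results of these data known. Of 19 effectors of fusion, adhesion, acid secretion and resorption measured, 1 was higher and 1 lower in condyle than in whole body, where 7.05% of all genes were higher and 2.91% lower. The median difference was 0.48, beside -0.03 over all genes, and it was -0.03 for the effectors too without condyle array 1, 0.15 under quantile normalization and 0.01 after centring. In fossa 0 were higher and 2 lower than in whole body (4.20% and 15.9% of all genes), and in condyle 1 was higher and 1 lower than in fossa (16.2% and 2.82%), or 0 and 1 without condyle array 1. The call lower in condyle than in fossa, of a gene not named here, also held under quantile normalization and was lost under a common floor. Car2, the carbonic anhydrase that supplies protons and that red cells also make, had 99.2, 46.9 and 34.8 on condyle arrays, 54.0, 38.3 and 48.0 on fossa arrays and 2199, 2176 and 2089 on whole body arrays. Both joint groups were far under whole body, with a difference of -5.30 ± 0.36 for condyle (SE, adjusted p = 0.000669 with limma) and of -5.54 for fossa (adjusted p = 0.000211). Clcn7, the chloride channel of the resorbing membrane, had 60.3, 104 and 96.9 on condyle arrays, 68.2, 36.4 and 50.3 on fossa arrays and 31.2, 28.3 and 34.5 on whole body arrays, and was higher in condyle than in whole body by 1.44 ± 0.28 (SE, adjusted p = 0.0312 with limma). Its call was lost under quantile normalization (0.96, adjusted p = 0.211). Atp6v1c1, a subunit of the proton pump, was lower in fossa than in whole body by 0.85 on the log2 scale (adjusted p = 0.0245 with limma), a call lost under quantile normalization (-0.29, adjusted p = 0.338), and Tcirg1, another subunit, had a difference of 0.82 in condyle against whole body (adjusted p = 0.146).

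Atp6v0d2, a proton pump subunit needed for fusion, had 39.2, 5.73 and 5.79 on condyle arrays, 5.56, 14.4 and 5.50 on fossa arrays and 6.012, 5.83 and 5.52 on whole body arrays. Itgb3, the integrin chain of the sealing zone, had 37.1, 5.41 and 5.73 on condyle arrays, 6.02, 11.3 and 5.97 on fossa arrays and 6.12, 5.98 and 5.95 on whole body arrays. Both were high on condyle array 1 and next on fossa array 2, and neither passed in any comparison. Ocstamp had 20.9 on condyle array 1 and 4.72 to 5.22 on the other 8 arrays, while Dcstamp, its partner in fusion, was at background on all 9. In all, 10 of the 19 effectors had their highest value on condyle array 1, as did 11.4% of all genes. Of the 19, 3 were at least 4-fold higher there than on both other condyle arrays, a count for which the share of all genes is not given here.

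Of 26 genes of RANK signal transduction, read against the same shares of all genes, 1 was higher in condyle than in whole body, 1 was lower in fossa than in whole body, and 3 were higher in condyle than in fossa. Without condyle array 1 the condyle calls numbered 0 against whole body and 2 against fossa, 1 was higher than in fossa under quantile normalization, and after centring 0 were higher and 5 lower than in fossa. Centring made 25426 of all 45037 probe sets lower in condyle than in fossa. The gene called higher in condyle than in whole body was Fosl2, an AP-1 subunit, with 399, 732 and 340 on condyle arrays, 252, 112 and 228 on fossa arrays and 97.7, 112 and 105 on whole body arrays, a difference of 2.15 ± 0.38 against whole body (SE, adjusted p = 0.0227 with limma). It did not pass without condyle array 1 (2.25, adjusted p = 0.0609) or under quantile normalization (1.86, adjusted p = 0.0682). Higher in condyle than in fossa were Sqstm1, a scaffold of the TRAF6 complex, by 0.95 (adjusted p = 0.0181 with limma), Map3k14, the kinase of the alternative NF-κB route, which was at background in fossa (at least 1.00-fold, adjusted p = 0.00246), and the p38 kinase gene Mapk14 by 0.73 (adjusted p = 0.0205). Under quantile normalization Map3k14 still passed, but Sqstm1 (0.22, adjusted p = 0.585 with limma) and Mapk14 (0.06, adjusted p = 0.892) did not. Without condyle array 1 Mapk14 did not pass either (0.72, adjusted p = 0.0661 with limma). Traf6, the adaptor of RANK, had a difference of 0.97 in condyle against whole body (adjusted p = 0.272).

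Of 9 genes of ITAM co-stimulation, the second signal that osteoclast precursors need, none was called in condyle against whole body (2 at an unadjusted p under 0.05 with limma), 3 were lower in fossa than in whole body and 1 was higher in condyle than in fossa. Among all genes, 15.9% were lower in fossa than in whole body and 16.2% higher in condyle than in fossa. Syk, the kinase that reads phosphorylated ITAMs, was lower in fossa than in whole body by at least 1.48-fold (adjusted p = 0.00336 with limma) and higher in condyle than in fossa by at least 1.52-fold (adjusted p = 0.00366). Tyrobp, the adaptor DAP12, had 209.7, 36.7 and 63.6 on condyle arrays, 68.8, 150.2 and 86.5 on fossa arrays and 442, 444 and 518 on whole body arrays. All joint arrays lay under all whole body arrays, and the difference was -2.28 in fossa (adjusted p = 0.0482 with limma, or -1.77 with 0.106 under quantile normalization) and -2.57 in condyle (adjusted p = 0.0606, or -3.27 with 0.0136 without condyle array 1). Fcer1g, the other ITAM adaptor, was lower in fossa, where it was at background, than in whole body by at least 1.27-fold (adjusted p = 0.0242 with limma, or 0.0869 under quantile normalization), and Trem2, a receptor that signals through DAP12, passed in no comparison.

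Of 13 genes of the CSF1 receptor axis, none was called in condyle against whole body (3 at an unadjusted p under 0.05 with limma), 3 were lower in fossa than in whole body, and 1 was higher in condyle than in fossa. The shares of all genes were again 15.9% lower in fossa than in whole body and 16.2% higher in condyle than in fossa. Csf1r, the receptor of CSF1 on macrophages and osteoclast precursors, had 2516, 180.1 and 219 on condyle arrays, 847, 1423 and 719 on fossa arrays and 1085, 1189 and 1628 on whole body arrays. Condyle array 1 was the highest of all 9 and condyle arrays 2 and 3 the lowest, and the condyle against whole body difference of -1.47 did not pass (adjusted p = 0.332 with limma). Without condyle array 1 that difference was -2.69 and passed (adjusted p = 0.0162 with limma), as did the difference of -2.26 against fossa (adjusted p = 0.0145). That array was picked after its high values were seen. Leaving out the highest value must lower the condyle mean and the spread, so these 2 calls are a description. The adaptor gene Grb2 was lower in fossa than in whole body by 0.77 on the log2 scale (adjusted p = 0.0157 with limma) and higher in condyle than in fossa by 0.81 (adjusted p = 0.0145), and both calls were lost under quantile normalization (adjusted p = 0.0681 and 0.647). Spi1, the lineage factor PU.1, passed in no comparison.

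Of 19 other ligands, receptors and stromal genes that act on osteoclasts, 2 were higher in condyle than in whole body, 3 were higher and 1 lower in fossa than in whole body, and 1 was higher and 2 lower in condyle than in fossa. Among all genes, 7.05% were higher in condyle than in whole body. In fossa against whole body 4.20% were higher and 15.9% lower, and in condyle against fossa 16.2% were higher and 2.82% lower. Pth1r, the parathyroid hormone receptor of chondrocytes and osteoblasts, had 185, 174 and 169 on condyle arrays, 109, 487 and 231 on fossa arrays and 30.8, 30.9 and 20.5 on whole body arrays. Both joint groups lay above whole body, by 2.71 ± 0.50 in condyle (SE, adjusted p = 0.0252 with limma, or 2.67 with 0.0823 without condyle array 1) and by 3.10 in fossa (adjusted p = 0.00728). Ror2, a receptor of WNT5A, was higher in condyle than in fossa by 2.28 (adjusted p = 0.00295 with limma), Ephb4 passed as higher in condyle than in whole body (adjusted p = 0.0211, or 0.0723 without condyle array 1) with no fold given, since it was at background on all whole body arrays and on 1 condyle array, and Sost, an osteocyte inhibitor of WNT signals, was higher in fossa than in whole body by at least 1.52-fold (adjusted p = 0.0246).

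Markers of the other cells that the captured tissue could hold also differed between groups and between condyle arrays. Of 18 macrophage and leukocyte markers, 1 (Fcgr3) was lower in condyle than in whole body (difference -1.77, adjusted p = 0.0243 with limma) and 1 (Lyz2) lower in fossa (difference -3.41, adjusted p = 0.0393). Among all genes, 2.91% were lower in condyle and 15.9% in fossa. Without condyle array 1, picked after its high values were seen, the counts lower than in whole body were 8 for condyle and 5 for fossa. In that setting 500 of all 45037 probe sets were lower in condyle and 4899 were lower in fossa. The fossa lost no array, and condyle array 1 enters its test only through the shared estimate of the spread. The mean log2 intensity of the macrophage list was 4.97, 3.75 and 3.90 on condyle arrays, 4.24, 4.61 and 4.24 on fossa arrays and 5.23, 5.38 and 5.20 on whole body arrays. Its highest condyle value was on array 1, which stayed under every whole body array, and 5 of its 18 genes were at least 4-fold higher on condyle array 1 than on both other condyle arrays. The share of all genes beyond that step is not given here, so the count is a description alone. Itgam, Cd14 and C1qc were at background on all 9 arrays. Of 11 neutrophil markers, 5 were lower in condyle than in whole body, as were 2.91% of all genes. The mean log2 intensity of the list was 3.89, 2.91 and 2.98 on condyle arrays, 2.77 to 3.01 on fossa arrays and 5.63 to 5.72 on whole body arrays, with Ltf, Elane and Mmp8 at background on all 9.

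Osteoblast and osteocyte markers, which mark cells that form bone or lie within it, also had a higher list mean on condyle array 1 than on the other condyle arrays. Of 7 measured, none was called in condyle against whole body (3 at an unadjusted p under 0.05 with limma) and 3 (Col1a1, Dmp1 and Mepe) were higher in fossa than in whole body, as were 4.20% of all genes. The mean log2 intensity of that list was 8.41, 5.91 and 6.35 on condyle arrays, 6.89, 8.77 and 8.17 on fossa arrays and 5.42, 5.34 and 5.26 on whole body arrays. Condyle array 1 thus lay among the fossa arrays for bone genes. Fossa array 2 had the highest value of the bone list and was second for Ctsk, Mmp9, Itgb3 and Atp6v0d2, but not for Acp5. Fossa array 3, at 8.17 for the bone list, had the lowest Acp5 (40.2) and Mmp9 (22.0) of the fossa arrays. Its Ctsk (131) lay between those of the other fossa arrays. Dmp1, an osteocyte matrix protein gene, had 828, 51.9 and 86.6 on condyle arrays, 304, 1967 and 1666 on fossa arrays and 20.0, 16.9 and 18.7 on whole body arrays. Of 9 chondrocyte markers, 5 were higher in each joint group than in whole body, beside 7.05% of all genes in condyle and 4.20% in fossa. The mean log2 intensity of the chondrocyte list on condyle arrays was 7.51, 7.07 and 6.79, with Col10a1 and Ihh at background on all 9. The part of the macrophage, neutrophil and bone genes in the values of Acp5, Ctsk and Mmp9 on condyle array 1 was not tested.

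The remaining marker lists gave the counts below, to be read against the shares of all genes. Those were 7.05% higher and 2.91% lower in condyle than in whole body and 4.20% higher and 15.9% lower in fossa than in whole body. In condyle against fossa they were 16.2% higher and 2.82% lower. In condyle against whole body, 0 of 8 endothelial, 0 of 8 epithelial, 0 of 9 skeletal muscle and 0 of 8 neuronal markers were called with limma (0, 3, 3 and 0 at an unadjusted p under 0.05 in that order), 5 of 7 erythroid markers were lower and 7 of 8 liver markers were lower. Set against whole body, the fossa was higher for 1 endothelial marker and lower for 2 epithelial, 2 muscle, 6 erythroid and 7 liver markers. In condyle against fossa, 2 endothelial markers were lower, 1 epithelial and 1 liver marker were higher, and none was called in the erythroid, muscle and neuronal lists (0, 1 and 0 at an unadjusted p under 0.05).

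**Figure D4:**
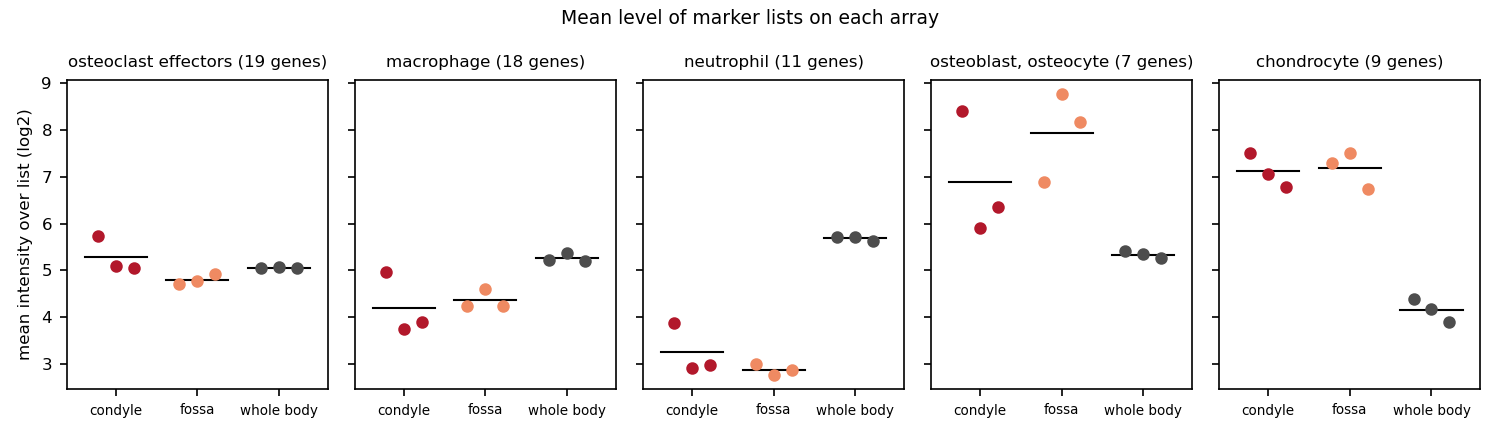
Mean log2 intensity of 5 gene lists on each of the 9 arrays, with condyle in red, fossa in orange and whole body in grey and replicates 1 to 3 from left to right. Condyle array 1 was above condyle arrays 2 and 3 in each list, by the widest margin for the osteoblast and osteocyte list, where its mean was 8.41 against 5.91 and 6.35.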

How the data were processed

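The values the authors deposited are linear intensities, 1 column per array. Limma is named in the submitters' processing notes, without a version. The authors' steps of background correction, normalization and probe summary are not given in the sources used. Log2 was taken here with a floor of 1. All 45037 probe sets other than 64 controls were fitted in 1 model of 3 groups with limma 3.58.1 in R 4.3.3 (lmFit and eBayes, 2-sided, 6 residual degrees of freedom), and p-values were adjusted by Benjamini-Hochberg over all of them. The number of arrays limits the precision.

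Names come from the platform annotation of the array, by which 34945 had 1 symbol, 932 several and 9160 no symbol. A gene was represented by its probe set with the highest mean over the 9 arrays. Where a group had an array at or under the background limit, the fold is "at least": it comes from the brighter group's mean log2 value minus the dimmer group's, whose dim values were raised to the limit. Where an array of the brighter group was itself under its limit, its measured value was kept, so that fold is not a strict bound. The members, the gene lists and the tests were chosen with earlier results of these data known. All probe sets of the members are named, and from the lists 11 fixed genes and up to 5 called genes, which are printed only for lists that bear on the members. Genes with a similar pattern had to be above background on all 3 arrays of a group.

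Alternatives were quantile normalization, centring, a common floor, array weights, other filters, a replicate block and leaving out each array. The fit was tested on simulated data. Some genes of the lists were not analysed here.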

Additional observations from a re-analysis of the deposited data

How the results depend on the processing

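Of the 1062 differences of members recomputed under alternatives, 992 kept their side of the threshold, 40 passed that had not and 29 no longer passed. The sign turned in 60, of which 59 did not pass either way. The other, Calcr in condyle against fossa, had passed and was -0.019 when each array was centred on the probe sets above background. A further 37 became 0 under a common floor. Ctsk passed in condyle against whole body only under array weights (3.15, adjusted p = 0.0402 with limma), whose estimation stopped before convergence. Of 22 member probe sets, 2 passed in condyle against whole body, and the alternatives gave 6 under array weights, 11 after centring, and 1 each under a common floor, with the 2 groups alone, without dim probe sets, under quantile normalization and with a replicate block. In fossa against whole body 2 passed, and the alternatives gave 6 under array weights, 0 after centring and under a common floor, and 1 each with 1 probe set per gene, without dim probe sets and with a replicate block. In condyle against fossa 4 passed, and the alternatives gave 8 under array weights, 12 after centring, 1 under a common floor, and 2 each with 1 probe set per gene and without dim probe sets. Leaving out 1 array gave 0 to 2, 1 to 3 and 4 to 5 in the same order.

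Over the whole array, 2790 probe sets passed in condyle against whole body: 15124 under array weights (36.7% higher), 28936 after centring (7.64% higher), 1522 under a common floor, 1765 under quantile normalization (47.6% higher, against 68.0% as reported) and 1659 with a replicate block, with 1520 to 3043 when 1 array was left out. In fossa against whole body 7583 passed: 3559 with 1 probe set per gene, 18347 under array weights, 3547 after centring (41.5% higher) and 2094 under a common floor, against 21.9% higher as reported and 47.4% under quantile normalization, with 4796 to 7390 when 1 array was left out. In condyle against fossa 7206 passed: 3440, 13047, 26775 (5.04% higher) and 1765 under those same 4 settings, against 74.9% higher as reported and 52.5% under quantile normalization, with 4319 to 8084 when 1 array was left out. Centring shifted the median of all probe sets to -0.53, 0.17 and -0.68 in the 3 comparisons. Whether the replicate numbers pair the samples is not stated in the labels. Same-numbered arrays had deviations from their group means correlated between -0.41 and 0.13 over 9 pairs. The highest correlation between arrays of different groups was 0.48, for condyle array 1 with fossa array 2. These values cannot decide whether samples share embryos. The cause of these changes was not tested. Fewer probe sets entered the test with 1 probe set per gene (18193) and with dim probe sets left out (27815). With dim probe sets left out, the calls in condyle against whole body nevertheless numbered 3748, above the 2790 reported.

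Values near an array's background limit have little spread, so small differences pass there and say nothing firm about a level. Counts of the gene lists were also recomputed under 4 of these settings, chosen after the data had been seen: among genes of the lists that passed, Ckm in fossa against whole body alone turned sign, after centring. The counts themselves were not stable: after centring, the RANK transduction list and the CSF1 receptor list each had 0 higher and 5 lower in condyle than in fossa, and 13 macrophage markers were lower in condyle than in whole body. Of all 45037 probe sets, centring made 25426 lower in condyle than in fossa and 26725 lower in condyle than in whole body. These list counts are therefore no result about the lists.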
